A study of Mus with 4 samples.

Results

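The genes described here are 10 genes that mark the cells of bone, namely Runx2, Sp7, Alpl, Bglap, Ibsp, Spp1, Dmp1, Phex, Acp5 and Tnfrsf11b, out of 26893 genes that the array names. They were chosen by name, because OASIS, the product of Creb3l1, is known as a transcription factor of osteoblasts, and every probe carrying one of these symbols was taken, which gave 17 probes. They were measured in an immortalized murine podocyte cell line that had been differentiated without interferon-γ at the nonpermissive temperature. The Venus group comprised 2 samples given a lentivirus for Venus, a fluorescent protein used as the control, and the OASIS group comprised 2 samples in which a lentivirus drove the active form of Oasis/Creb3l1. Total RNA was taken from both groups 48 h after the vectors were added, and each sample was read on its own 1-colour Agilent array. The cells of both groups therefore carried a lentivirus, and the OASIS group carried the active form, not the full-length membrane protein. The labels do not say whether the samples of a group came from separate cultures, so that p-values measure only the spread between these samples, which may be technical.

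Bone is built by osteoblasts, which lay down a collagen matrix and mineralize it. Those buried in the matrix become osteocytes, which regulate phosphate, and osteoclasts, a separate lineage related to macrophages, resorb the matrix again. Among the genes followed here, Runx2 and Sp7 encode the transcription factors that commit cells to the osteoblast lineage. Alpl encodes the alkaline phosphatase that supplies phosphate for mineral, and Bglap, Ibsp, Spp1 and Dmp1 encode noncollagenous proteins of the matrix. Phex encodes a phosphate-regulating endopeptidase of osteoblasts and osteocytes. Acp5 encodes the tartrate-resistant acid phosphatase used as the osteoclast stain, and Tnfrsf11b encodes osteoprotegerin, the decoy receptor by which osteoblasts restrain osteoclast formation. OASIS is a membrane-bound factor of the endoplasmic reticulum whose N-terminal part enters the nucleus after cleavage, and the type I collagen gene Col1a1 is its best known target in osteoblasts.

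The arrays shared 1 slide and 1 scan, between 33938 and 34418 of 59305 spots per array were well above background, and none was saturated. Log2 values of the arrays correlated at r = 0.997 within the Venus group, at r = 0.995 within the OASIS group and at 0.973 to 0.978 between the groups. Of the podocyte markers, 8 of 12 were tested, and 2 of these, or 25%, were higher in OASIS at a fold over 2.0 and an adjusted p under 0.1, where 6.21% of all genes tested were. They were Wt1 and Cd2ap, which were higher by 4.62 (SE 0.21) and 1.09 (SE 0.11) on the log2 scale. Ptpro and Tcf21 were not well above background on any array, and Nphs1 was so on 1 Venus array alone, so that several defining podocyte transcripts were not detectable in this line. The Creb3l1 probe did not rise, with a log2 difference of -0.17 (SE 0.10, adjusted p = 0.298). Whether that probe lies in the introduced fragment is not known here, so it checks neither the vector nor the labels.

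Of the 10 genes 6 were detected, and among these Acp5 alone was called higher in the OASIS samples. Testing required a signal well above background in both samples of a group, which 8 of the 17 probes had, and over the array 60.7% of named genes had such a probe. A difference was called at a fold over 2.0 or under 0.5 together with an adjusted p under 0.1, from limma fitted to all probes tested. With each gene read from its brightest tested probe, 1 of the 6 genes, Acp5, was called higher, where 6.21% of the 16318 genes tested were called higher. None of the 6 was called lower, where 1.85% of all genes were. That background of 302 lower genes was 474 without OASIS replicate 2. Counted by probe, 1 of the 8 was higher and 1 was lower, the latter a probe of Runx2, where 5.89% and 2.47% of all 31598 probes were called higher and lower. At an adjusted p under 0.1 with any fold, 3 of the 6 genes passed, Acp5, Runx2 and Bglap, as did 36.8% of all genes. The median log2 difference was -0.17 over the 6 genes and -0.06 over all genes tested. With 2 samples in each group, an exact two-sided permutation test of a single gene cannot go below p = 0.333.

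**Figure D1:**
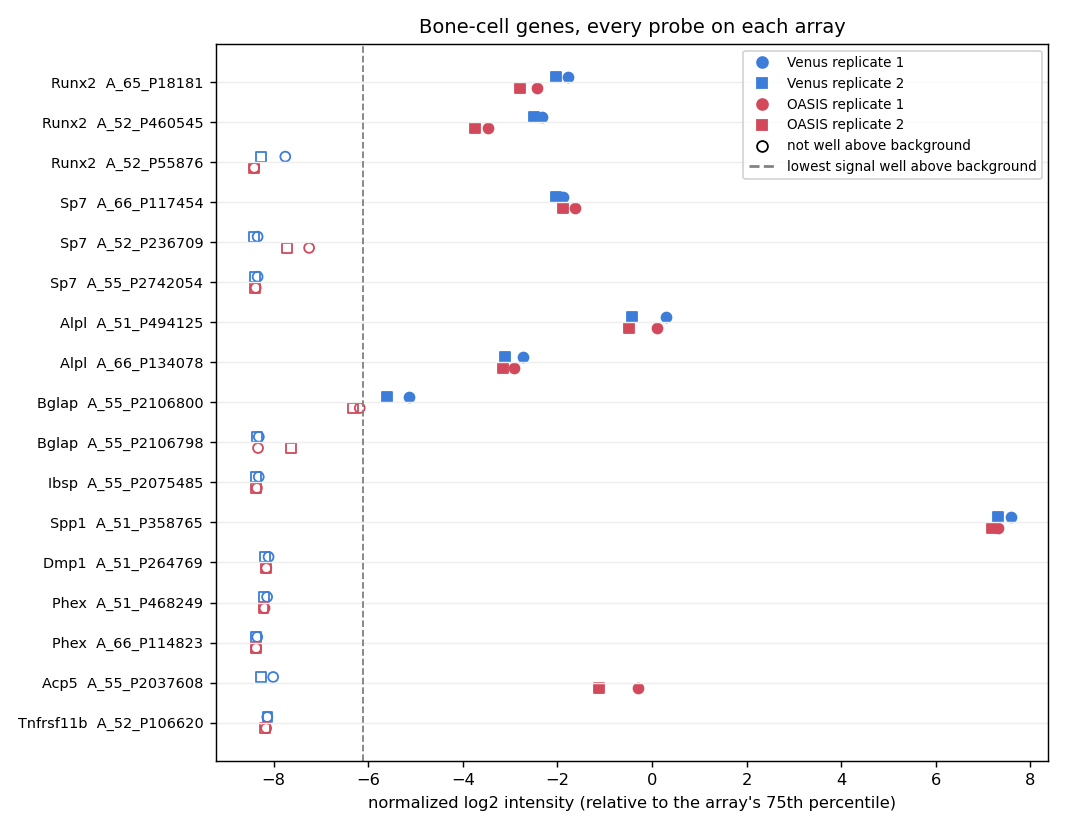
Normalized log2 intensity of all 17 probes of the 10 bone-cell genes (rows) on each of the 4 arrays, Venus in blue and OASIS in red, with circles for replicate 1 and squares for replicate 2. Open symbols mark a probe that was not well above background in that group, and the dashed line the lowest signal that was; levels of different probes are not comparable. Acp5 crossed from the background to between -1.12 and -0.31 in OASIS, while Ibsp, Dmp1, Phex and Tnfrsf11b stayed at the background on every array.

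Runx2, the first factor of osteoblast commitment, was lower in OASIS by both of its detected probes, and only 1 of them passed the 2-fold limit. Runx2 lies on chromosome 17, band qB3, and has 3 probes. The probe A_52_P460545, assigned to the transcript NM_009820, read normalized log2 intensities of -2.33 and -2.50 in the Venus samples and of -3.47 and -3.75 in the OASIS samples, from corrected intensities of 184 and 174 against 86.5 and 72.2. Both OASIS samples were below both Venus samples, by 0.96 at the nearest. The fitted difference was -1.19 on the log2 scale (SE 0.15, 95% interval -1.57 to -0.81, adjusted p = 0.0112), or 0.44-fold. In bulk RNA such as this, fewer cells carrying a transcript and less transcript per cell cannot be told apart.

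The brighter Runx2 probe A_65_P18181, assigned to the noncoding transcript NR_073425, gave the same direction with a smaller difference. Its normalized log2 intensities were -1.77 and -2.03 in Venus and -2.42 and -2.79 in OASIS. The groups were apart by 0.39 at the nearest, and the fitted difference was -0.71 (SE 0.18, 95% interval -1.18 to -0.24, adjusted p = 0.0511), or 0.61-fold, which met the limit on adjusted p and not the limit on fold. The last probe of Runx2, A_52_P55876, carries the same accession NM_009820 as the called probe, yet was not well above background on any array. The probes thus disagreed on whether the transcript was detected at all, and the call of a fall rests on 1 probe. It was lost under normexp background correction, with -0.81, and under the methods' t-test, with an adjusted p of 0.120.

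Sp7, or osterix, which acts after Runx2, showed no difference past the threshold. It lies on chromosome 15, band qF3. Its brightest probe A_66_P117454 read -1.88 and -2.04 in Venus and -1.62 and -1.88 in OASIS. The lowest OASIS and the highest Venus sample differed by 0.0010, so that the groups all but touched. The fitted difference was 0.21 (SE 0.14, 95% interval -0.16 to 0.57, adjusted p = 0.323). The spot of this probe carried a mark for a non-uniform background on both OASIS arrays. The other probes of Sp7, A_52_P236709 and A_55_P2742054, were not well above background on any array, although the second is assigned to the same transcript NM_001348205 as the brightest probe. Detection of Sp7 in these cells therefore rests on a single probe.

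Alpl, the alkaline phosphatase of mineralizing cells, did not separate the groups. It lies on chromosome 4, band qD3. The probe A_51_P494125 read corrected intensities of 1138 and 738 in Venus and of 1022 and 695 in OASIS. On the log2 scale these were 0.30 and -0.42 against 0.10 and -0.48, with group means of -0.06 ± 0.51 and -0.19 ± 0.41 (SD, n = 2 each). Replicate 1 was above replicate 2 in each group, and the groups overlapped. The fitted difference was -0.13 (SE 0.32, 95% interval -0.96 to 0.71, adjusted p = 0.794), so that its interval on the linear scale ran from 0.51-fold to 1.63-fold. The dimmer probe A_66_P134078 gave -0.11 (SE 0.18, 95% interval -0.57 to 0.36, adjusted p = 0.697) and overlapped likewise. The sign of both turned when 1 sample was left out, to 0.23 and 0.087 without Venus replicate 1 and to 0.16 and 0.011 without OASIS replicate 2.

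Bglap, or osteocalcin, the late osteoblast protein that binds mineral, was near the limit of detection and lower in OASIS, without passing the 2-fold limit. It lies on chromosome 3, band qF1. The probe A_55_P2106800 read normalized log2 intensities of -5.15 and -5.61 in Venus, both well above background, and of -6.18 and -6.33 in OASIS, neither well above background. For scale, the lowest value that counted as well above background was between -6.15 and -6.10 on the 4 arrays, and the groups were apart by 0.57 at the nearest. Because OASIS has only a bound, the Venus mean was at least 1.70-fold higher in this processing. That bound makes no allowance for the spread between samples. The probe entered the test through the Venus samples alone. The fitted log2 difference of -0.87 (SE 0.19, adjusted p = 0.0362) was taken against OASIS values not well above background. The bound is therefore the size to read. The fitted difference was -0.09 under normexp background correction. It passed the threshold without Venus replicate 2, at -1.11 (adjusted p = 0.0507). The other probe, A_55_P2106798, was not well above background on any array.

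Bglap has close copies next to it in the mouse genome, Bglap2 and Bglap3, and a probe for one may bind transcripts of another, so that the 3 genes are uncertain as separate measurements. Bglap2 read -3.27 and -3.20 in Venus and -3.48 and -3.68 in OASIS, a difference of -0.35 (SE 0.12, adjusted p = 0.102). Bglap3 read -3.66 and -3.71 in Venus and -4.40 and -4.08 in OASIS, a difference of -0.56 (SE 0.14, adjusted p = 0.0543). None of the 3 copies passed the threshold. Each had both OASIS samples below both Venus samples, as had 6431 of the 16318 genes tested.

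Spp1, Ibsp and Dmp1 belong to a family of acidic phosphoproteins encoded side by side on chromosome 5, band qE5, and only Spp1 was detected. Spp1, or osteopontin, also made by many cells outside bone, read corrected intensities of 177312 and 158196 in Venus and of 151553 and 140721 in OASIS. None of these spots was saturated. On the log2 scale they were 7.58 and 7.32 against 7.31 and 7.18, so that the highest OASIS sample was below the lowest Venus sample by 0.015. The fitted difference was -0.21 (SE 0.14, 95% interval -0.56 to 0.15, adjusted p = 0.317), which did not pass. Leaving out each sample in turn gave -0.33 to -0.08.

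Ibsp, or bone sialoprotein, was not well above background on any array, with corrected intensities between 2.91 and 2.97. Dmp1, a matrix protein of osteocytes, was not either, with intensities between 3.35 and 3.42. In the order of genes in the mouse assembly GRCm38.p6, the cluster runs Sparcl1, Dspp, Dmp1, Ibsp, Mepe, Spp1 and Pkd2. Mepe, a further phosphoprotein of osteocytes, read -4.73 and -4.54 in Venus and -4.86 and -5.02 in OASIS, a difference of -0.30 (SE 0.13, adjusted p = 0.148). Dspp and Sparcl1 were not well above background on any array, and Pkd2 at the edge of the cluster gave 0.12 (SE 0.10, adjusted p = 0.454). Of the 7 genes of the cluster 3 were tested and none passed the threshold, too few to read against the 6.21% and 1.85% of all genes.

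Phex on chromosome X, band qF4, was not well above background on any array by either of its probes, A_51_P468249 and A_66_P114823, whose intensities lay between 2.85 and 3.35. For all 9 probes of the 10 genes that were not tested, intensities lay between 2.81 and 6.28, below the lowest detected signal on every array. Fitted without a filter they gave log2 differences between -0.40 and 0.90, the highest being the Sp7 probe A_52_P236709, and 0 of the 9 passed. Differences between groups in these genes were not detectable with these probes, which does not show that the transcripts are absent.

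Acp5, the osteoclast phosphatase, was the only one of the 10 genes that passed the threshold upwards, and it went from undetected to clearly detected. It lies on chromosome 9, band qA3, and has 1 probe, A_55_P2037608, assigned to NM_001102405. The corrected intensities were 3.59 and 3.21 in the Venus samples and 773 and 444 in the OASIS samples. Both Venus samples were at the background, and both OASIS samples were far above it. On the log2 scale the Venus samples were at -8.01 and -8.26 and the OASIS samples at -0.31 and -1.12, with means of -8.14 ± 0.18 and -0.72 ± 0.58 (SD, n = 2 each). Since Venus has only a bound, mean Acp5 was at least 42.5-fold higher in OASIS in this processing. That bound, too, makes no allowance for the spread between samples. The fitted difference of 7.42 (SE 0.30, adjusted p = 0.0019) was taken against Venus values at background, as was the 3.13 under normexp background correction, so that the bound is the size to read. The probe entered the test through the OASIS samples alone. The OASIS samples differed from each other by 0.82 on the log2 scale, where the bound on the difference between the groups was 5.41.

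**Figure D2:**
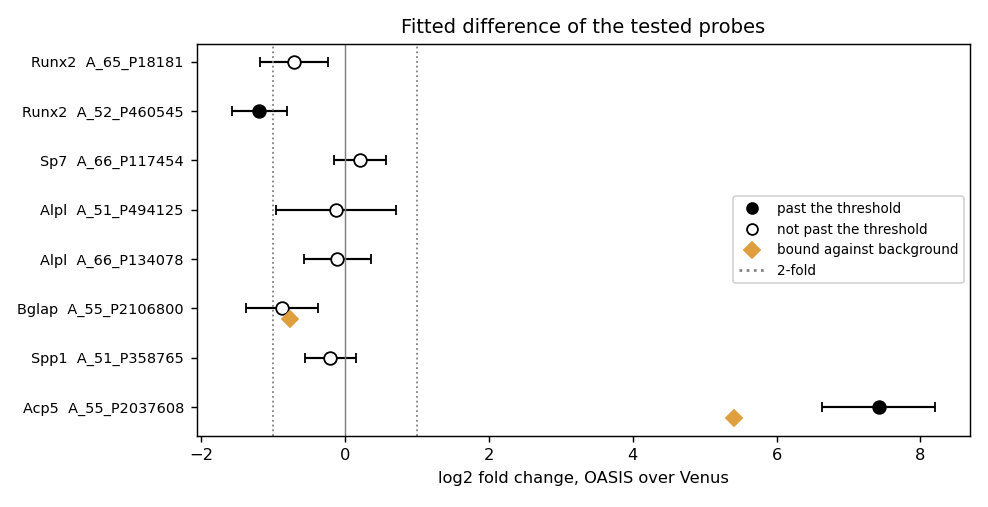
Fitted log2 fold change of OASIS over Venus for the 8 tested probes, with 95% intervals from limma as bars and dotted lines at 2-fold. Filled points passed the threshold, and diamonds give the bound against background for Bglap and Acp5. Acp5 lies at 7.42 and a Runx2 probe at -1.19, and the intervals of Sp7, Alpl and Spp1 include 0.

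None of the 6 genes next to Acp5 and none of 4 other acid phosphatase genes passed the threshold. Of all genes tested 6.21% were higher and 1.85% lower, so that these counts are too small to set the genes apart from the array. In the order of GRCm38.p6, the 3 genes on either side of Acp5 gave log2 differences of 0.19 for Ecsit, 0.88 for Cnn1 (SE 0.32, adjusted p = 0.116), 0.39 for Elof1, -0.07 for Pigyl, -0.08 for Zfp872 and -0.33 for Zfp809. The acid phosphatase genes Acp1, Acp2, Acp6 and Acpp gave 0.05, -0.12, -0.26 and 0.03, with adjusted p between 0.119 and 0.954. Of 14 acid and alkaline phosphatases and related phosphatases on the array, 8 were tested, 0 were higher and 1 was lower, the ectonucleotide phosphodiesterase Enpp3, numbers too small to differ visibly from the 6.21% and 1.85% over all genes. Enpp3 was not well above background in OASIS and was at least 1.11-fold lower. Its call was lost without Venus replicate 1 or Venus replicate 2, at adjusted p of 0.149 and 0.147, and without OASIS replicate 2, where the log2 difference was -0.76.

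Of 23 other osteoclast genes on the array 17 were tested, with a median of 0.17, and 1 was higher and 1 was lower, or 5.88% each, beside 6.21% and 1.85% of all genes tested. The higher one was Oscar, a costimulatory receptor of osteoclasts, at 1.02 (SE 0.18, adjusted p = 0.0239). The lower one was Traf6, the adaptor that carries the signal of the RANK receptor, at -1.05 (SE 0.12, adjusted p = 0.0091). Both lay close to the 2-fold limit: the Oscar call was lost without Venus replicate 1, at 0.88, and without OASIS replicate 1, at 0.83, and the Traf6 call without OASIS replicate 2, at -0.96. Scaling to the median gave 0.99 for Oscar and ended its call. Ctsk, the collagen-cleaving protease of the resorption pit, gave -0.41 (SE 0.12, adjusted p = 0.0769), and Nfatc1, the master factor of osteoclasts, 0.61 (SE 0.13, adjusted p = 0.0337), both within 2-fold.

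Dcstamp, Calcr, Atp6v0d2, Trem2, Tyrobp and Spi1, which mark osteoclasts or their precursors, were not well above background on any array. Of 9 macrophage markers 7 were tested and none passed the threshold, from -0.51 to 0.74, which with so few genes is near the 6.21% higher and 1.85% lower over all genes. The highest was Csf1r, the receptor for the macrophage growth factor, at 0.74 (SE 0.22, adjusted p = 0.0720). Adgre1, the F4/80 antigen, was not well above background on any array.

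Tnfrsf11b, on chromosome 15, band qD1, was not well above background on any array, with intensities of 3.30 and 3.53 in Venus and of 3.34 and 3.32 in OASIS. Its ligand Tnfsf11, or RANKL, had 2 probes. The probe A_52_P488947 was well above background in Venus replicate 1 alone, at a normalized log2 intensity of -5.54, against -8.25 in Venus replicate 2 and -8.25 and -8.27 in OASIS, and the other was at background throughout. The receptor Tnfrsf11a, or RANK, was detected by 1 of 3 probes, which read -2.52 and -2.43 in Venus and -2.25 and -2.37 in OASIS, a difference of 0.17 (SE 0.11, adjusted p = 0.307). The ligand and its decoy receptor were thus not detected in OASIS, and the receptor did not pass the threshold.

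Of 14 ligands, receptors and coupling signals of osteoclast formation on the array, Tnfsf11 and Tnfrsf11a included, 12 were tested, 1 was higher and 1 was lower, or 8.33% each, beside 6.21% and 1.85% of all genes. The higher one was the semaphorin Sema3b, at 3.95 (SE 0.16, adjusted p = 0.0019). The lower one was Il34, a second ligand of the Csf1r receptor, at -1.41 (SE 0.23, adjusted p = 0.0190). Csf1, the first ligand of that receptor, gave -0.33 (SE 0.13, adjusted p = 0.129).

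Col1a1, Col1a2 and Lox, genes of collagen fibrils, were higher in OASIS. Of 29 further matrix and mineralization genes on the array 24 were tested, and 5 were higher and 0 lower, or 20.8% higher, with a median of 0.16, where 6.21% of all genes were higher and 1.85% lower. Col1a1, the α1 chain of type I collagen, rose by 6.08 (SE 0.16, adjusted p = 0.0014) and Col1a2, its partner chain, by 2.71 (SE 0.11, adjusted p = 0.0019). Lox, the enzyme that crosslinks collagen, rose by 3.98 (SE 0.20, adjusted p = 0.0026), and Col5a2, a chain of a collagen that joins type I fibrils, by 1.24 (SE 0.37, adjusted p = 0.0741). The call of Col5a2 was lost without Venus replicate 1, at 0.96, without Venus replicate 2, at an adjusted p of 0.115, and without OASIS replicate 2, at 0.77, and the count of 5 became 3 without Venus replicate 1. The fifth was Col5a1, at 1.10 (SE 0.14, adjusted p = 0.0127), whose call was also lost without Venus replicate 1, since Col1a1, Col1a2 and Lox kept theirs without each sample in turn. Sparc, or osteonectin, gave 0.19 (SE 0.16, adjusted p = 0.433), and Bgn, the proteoglycan biglycan, 0.29 (SE 0.24, adjusted p = 0.420). Others of the list were lower without being called, and the lowest was Smpd3 at -0.93.

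Among the factors and signals of the osteoblast lineage, 3 of 25 tested were higher and 0 lower, or 12%, with a median of 0.10, against 6.21% and 1.85% over all genes. Bmp7, a bone morphogenetic protein also made in kidney, rose by 3.65 (SE 0.32, adjusted p = 0.0065), Fgfr3, a fibroblast growth factor receptor that restrains growth plates, by 1.76 (SE 0.13, adjusted p = 0.0051), and Gli1, a target of hedgehog signalling, by 1.31 (SE 0.18, adjusted p = 0.0146). Cbfb, the partner subunit of Runx2, gave 0.61 (SE 0.11, adjusted p = 0.0224), below 2-fold and opposite in sign to Runx2. Bmp2, which induces Runx2 in osteoblast precursors, gave 0.98 (SE 0.14, adjusted p = 0.0147), just below 2-fold. Genes that were not called went in both directions, and the 25 ran from -0.85 for Fgfr2, not called, to 3.65 for Bmp7.

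Of 13 osteocyte and phosphate genes 9 were tested, and 1 was higher and 1 was lower, or 11.1% each, where 6.21% and 1.85% of all genes were. Galnt3, the glycosyltransferase that protects the phosphate hormone FGF23, rose by 3.38 (SE 0.16, adjusted p = 0.0023), and Cd44, a receptor for hyaluronan and osteopontin, fell by 1.13 on the log2 scale (SE 0.12, adjusted p = 0.0083). The median of these genes was -0.30. None of 5 tested chondrocyte markers and none of 4 tested adipocyte markers passed the threshold, numbers too small to set beside the shares over all genes. The chondrocyte median was 0.67, with Sox9, the factor of cartilage, at 0.75 (SE 0.15, adjusted p = 0.0339). The chondrocyte count was 1 in place of 0 without Venus replicate 1, without Venus replicate 2 or without OASIS replicate 2.

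**Figure D3:**
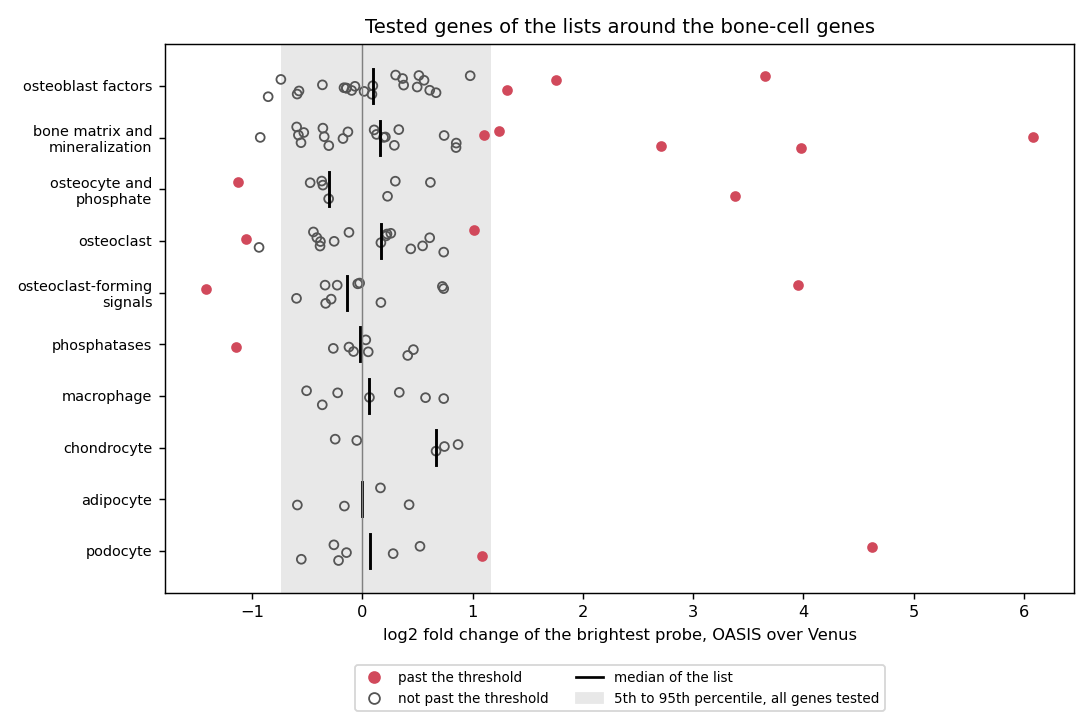
Log2 fold change of OASIS over Venus for the tested genes of 10 lists around the bone-cell genes, the 10 genes themselves left out, each gene by its brightest probe. Filled points passed the threshold, bars mark list medians, the grey band spans -0.74 to 1.17, the 5th to 95th percentile of all genes tested, and the vertical scatter within a list is for legibility only. Col1a1, Lox and Col1a2 lie far to the right in the bone matrix list, at 6.08, 3.98 and 2.71, and no macrophage, chondrocyte or adipocyte marker is filled.

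Around all 10 genes, 39 neighbours that are not among the 10 were tested, taking the 3 nearest genes on each side in GRCm38.p6. None was called higher, where 6.21% of all genes were, and 1 was called lower, where 1.85% were. The latter was Samd12 next to Tnfrsf11b, at -1.03 (SE 0.10, adjusted p = 0.0077). With so few genes, these counts do not set the neighbours apart from the array. The 6 neighbours of Runx2, namely Enpp5, Enpp4, Clic5, Supt3, 4930564C03Rik and Cdc5l, gave -0.32 to 0.17, and none passed.

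The genes closest in pattern to the called Runx2 probe were Dock5, Gpbp1l1 and Magt1, by the Euclidean distance between values centred on each probe's mean over the 4 arrays, among 15438 genes. Dock5, an exchange factor for Rac, differed by -1.18 (distance 0.035), Gpbp1l1 by -1.27 (distance 0.085), and Magt1, a gene associated with magnesium transport, by -1.15 (distance 0.088). With 4 arrays, this likeness describes little more than a difference of similar size.

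In the annotation deposited with the array, 7 of the 10 genes carry the term ossification, as do 0.617% of named genes, which follows from the choice of the genes. The terms and the measurements divide them alike only in part. Over the array 60.7% of named genes were tested, and the counts that follow are too small to set a term apart from that share. Of the 5 with a term for biomineralization or bone mineralization, Bglap and Spp1 were detected and Dmp1, Ibsp and Phex were not. Of the 4 with osteoblast differentiation, Bglap, Runx2, Sp7 and Spp1, all were detected in at least 1 group. Of the 3 with a term for osteoclasts or bone resorption, Acp5 was higher, Spp1 did not pass and Tnfrsf11b was not detected.

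Acp5 was called in each of the 15 alternatives that tested it, in which it entered through the OASIS samples or with no filter, and the Runx2 probe A_52_P460545 in 14 of 16. Bglap was not called as reported and was called in 1 of its 15 alternatives, without Venus replicate 2. Over its alternatives the log2 difference of Acp5 from Venus values at background was 3.13 to 7.83, with an adjusted p of at most 0.0941. A filter on all 4 arrays leaves Acp5 and Bglap untested, because each was at background in a group.

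**Figure D4:**
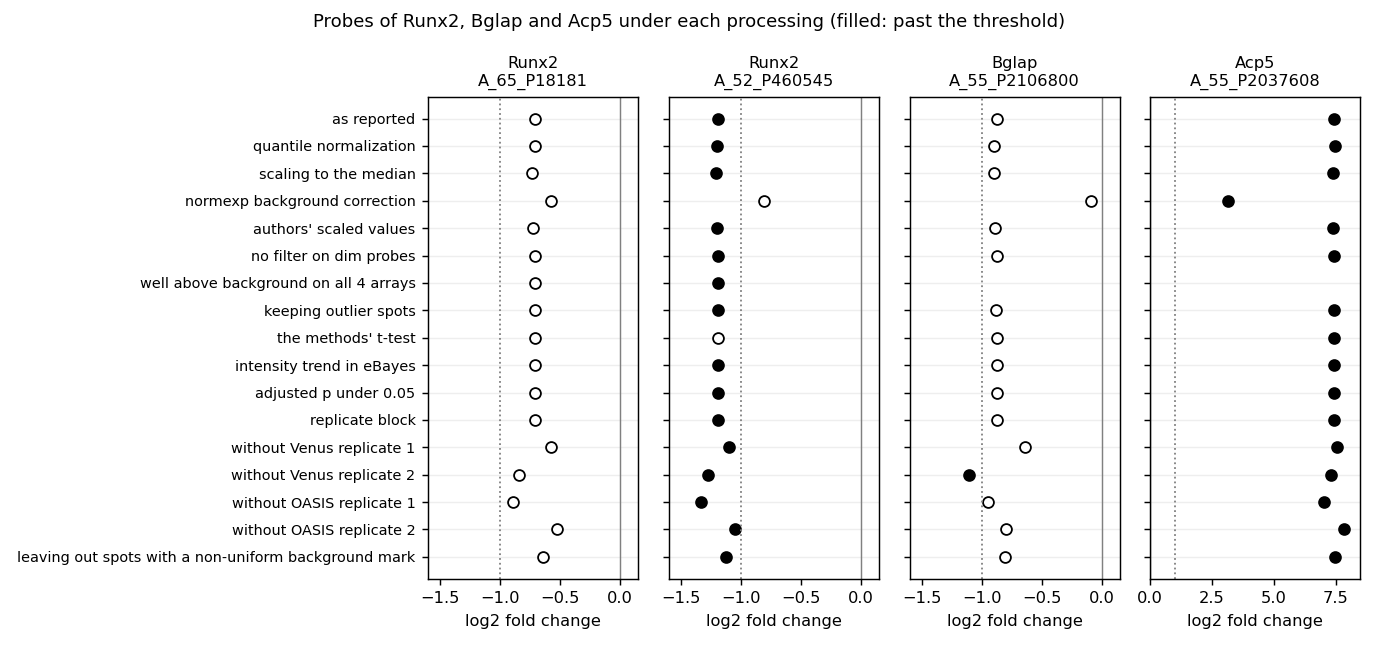
Log2 fold change of OASIS over Venus for both detected Runx2 probes and for the probes of Bglap and Acp5 (panels) under each processing (rows). Filled points passed that row's threshold, dotted lines mark 2-fold, and the axis of Acp5 differs from the others. Acp5 is filled in every row that has a point, and the Runx2 probe A_52_P460545 is open under normexp, at -0.81, and under the methods' t-test.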

How the data were processed

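Agilent Feature Extraction 12.1.0.3 was run by the authors, whose deposited scanner output gives a background-corrected intensity per spot, with marks for outliers, saturation and signal well above background. A table that the authors deposited gives scaled intensities, which were used as an alternative, and a detection score per spot. It also gives the gene symbols, bands and Gene Ontology terms used here.

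Corrected intensities were converted to log2 and set against each array's 75th percentile. Control and outlier spots were left out, and spots of a probe were averaged. On each array, a probe needed a share of at least 0.5 of its spots well above background to count as such. The 31598 probes of 56605 that passed were fitted in R 4.3.3 (data.table, version 1.17.8) with lmFit and eBayes of limma 3.58.1, with Benjamini-Hochberg adjustment over all of them. A gene was read from the tested probe with the highest mean, and the limits on fold and adjusted p are those of the study's methods. The fit was tested on simulated data.

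For a group in which no array measured a probe, a bound was set per array against the lowest value well above background, or the probe's value where that was higher, and averaged. Such a bound compares group means and makes no allowance for the spread between samples. Entrez identifiers of all 10 genes matched the RefSeq table of GRCm38.p6, used only for names and gene order. No coordinates or sequences were used here.

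The 10 genes, the gene lists and the tests were chosen with earlier results of these data known. Genes were named by a rule. It takes every bone-cell gene, partners of those genes, Creb3l1, from each list up to 4 genes past the threshold measured in both groups and up to 3 with a bound, and the 3 genes nearest to the called Runx2 probe. Values of some genes that the rule or the lists name are not reported here. Other genes in the text were chosen after their values were seen. The lists share genes, such as Csf1r, Tnfrsf11a and Spi1.

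Alternatives were other scalings, normexp correction with an offset of 50, other filters, outlier spots kept, gene means over probes, an intensity trend, the methods' t-test, a limit of 0.05 on adjusted p, a block for replicate number, and each array left out in turn. Dropping spots with a non-uniform background mark was chosen after seeing the values. The number of arrays limits the precision.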

Additional observations from a re-analysis of the deposited data

How the results depend on the processing

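With 2 arrays a group, the spread rests on few values, and probes near background carry little signal. Over the whole array 1316 genes passed, 1014 higher and 302 lower. Under normexp correction these were 789, 652 and 137, and under the methods' t-test 400, 334 and 66. Leaving out each array gave 1267 to 1718 genes, 988 to 1244 higher and 279 to 474 lower. Of the bone-cell genes, the count called higher was 1 and became 0, by gene and by probe, with the filter on all 4 arrays, which leaves Acp5 untested by construction, and it was 1 without each array in turn. By brightest probe the count of lower genes was 0 to 1 when arrays were left out, with Bglap added without Venus replicate 2. The count of lower probes was 1 and became 0 under normexp and under the methods' t-test, and was 1 to 2 when arrays were left out; the cause was not tested. By that test the adjusted p was 0.120 for Runx2 A_52_P460545 and 0.0941 for Acp5, and both passed with p-values unadjusted. The difference of Alpl ranged from -0.49 to 0.23 (A_51_P494125) and from -0.30 to 0.087 (A_66_P134078) when arrays were left out, and turned sign, to 0.23 and 0.087 without Venus replicate 1 and to 0.16 and 0.011 without OASIS replicate 2. For the Sp7 probe, leaving out spots with a non-uniform background left no OASIS value. Among the other genes named, normexp ended the calls of Col5a2, Enpp3, Gli1, Hpse, Ifnb1, Oscar, Pilrb1, Sfrp1 and Traf6, and the mean of a gene's probes those of Cd2ap, Cd44, Col5a2, Dock5, Gpbp1l1, Oscar and Traf6. The methods' t-test ended those of Bmp7, Ccl5, Cd2ap, Cd44, Col5a2, Dock5, Enpp3, Gli1, Gpbp1l1, Ifnb1, Il34, Magt1, Oscar, Pilrb1, Sfrp1 and Traf6. Col1a1, Col1a2, Lox, Fgfr3, Galnt3, Sema3b and Wt1 kept their calls under these 3. A slide block could not be fitted, as there is 1 slide.

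Both groups carry the replicate numbers 1 and 2 in the labels. Deviations of same-numbered arrays correlated at r = 0.259 over genes, which with 2 pairs does not establish a pairing. With the replicate number as a block, 1345 genes passed, 1018 higher and 327 lower. The block gave 1 bone-cell gene higher and 0 lower, and 1 probe higher and 1 lower, as without it. The block changed no call of the 10 genes.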

Other observations

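Genes that the array's Gene Ontology terms place in bone formation or in bone resorption were counted after the values had been seen. Of 370 bone formation genes on the array, the 10 genes above left out, 286 were tested, of which 28 were higher and 8 lower, or 9.79% and 2.8%, beside 6.21% and 1.85% of all genes tested, with a median log2 difference of 0.02. Besides Col1a1 and Bmp7, Fzd9, a Wnt receptor of osteoblasts, rose by 4.23 (SE 0.20, adjusted p = 0.0025), and the sulfate transporter Slc26a2, needed for cartilage proteoglycans, by 2.66 (SE 0.13, adjusted p = 0.0025). Pthlh, the parathyroid hormone-related peptide, was not well above background in Venus and was at least 43.3-fold higher in OASIS (adjusted p = 0.0015). Sfrp1, a secreted Wnt inhibitor, and the heparanase Hpse were likewise undetected in Venus and were at least 2.36-fold and 2.13-fold higher. These bounds hold for this processing. Over the alternatives the fitted log2 differences of Pthlh, Sfrp1 and Hpse were as low as 3.08, 0.49 and 0.41.

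Of 139 bone resorption genes 105 were tested, with 11 higher and 6 lower, or 10.5% and 5.71%, beside the same shares of all genes, and a median of -0.04. Fgfr3 rose by 1.76 and Tmem64 by 1.72 (SE 0.12, adjusted p = 0.0047). The receptor gene Pilrb1 was called higher, at a fitted 2.16 (SE 0.15, adjusted p = 0.0046), and entered the test through the OASIS samples alone. It was detected on a single Venus array, so that 2.16 rests partly on a value not well above background. Over its alternatives the difference was as low as 0.71. Ccl5, a chemokine, fell by 1.95 on the log2 scale (SE 0.33, adjusted p = 0.0215), and Ifnb1, interferon β, which restrains osteoclast formation, was not well above background in OASIS and was at least 5.64-fold lower (adjusted p = 0.0165). Over its alternatives the fitted log2 difference of Ifnb1 was as small as -0.92. The count of 17 resorption genes past the threshold was 9 under normexp correction, 11 with the filter on all 4 arrays and 5 under the methods' t-test, and the 36 formation genes were 11 under that test.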
